A study of Mus musculus with 10 samples.

Results

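The genes described here encode the enzymes that build, desaturate and elongate fatty acids: Acly, Acaca, Fasn, Scd1, Scd2, Elovl1, Elovl5, Elovl6, Fads1 and Fads2. They were chosen by gene symbol, and all 10 were found among the 25239 symbols of the count table. RNA sequencing counts came from 10 mouse libraries in 4 groups. MLTC-1, a Leydig cell tumour line, was given hymeglusin (n = 3), a beta-lactone that inhibits HMG-CoA synthase, or the solvent DMSO (n = 3). Untreated primary cells, which in the testis make testosterone, were taken from mice 24 months old (n = 2) or 2 months old (n = 2). The series title links impaired ketone body formation in Leydig cells to ageing of the testis. The labels give no hymeglusin dose or time, no mouse strain and no method of cell isolation, and MLTC-1 is a single tumour line.

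Fatty acid synthesis starts in the cytosol, where citrate exported from mitochondria is cleaved to acetyl-CoA, which is carboxylated to malonyl-CoA and used to build palmitate. Palmitate and fatty acids from the diet are lengthened by elongases and given double bonds by desaturases in the endoplasmic reticulum, and the products enter membrane phospholipids, triglycerides and cholesteryl esters. The transcription factor SREBP-1c, made from Srebf1, activates most of these genes, with NF-Y and Sp1 as its partners, and the same acetyl-CoA pool feeds cholesterol, from which Leydig cells make steroids.

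Total counts per library ranged from 17407456 to 34787330. The 24-month libraries stood apart: their 10 most abundant genes took 9.65% and 6.64% of the counts, against 2.77% to 4.80% in the other 8 libraries, and the pair differed more from each other (chi-square per degree of freedom 134) than the 2-month pair (18.9) or the MLTC-1 replicates (3.44 to 7.67). All 9 Leydig cell markers, such as Cyp11a1 and Star, were above 0 in every group. This does not tell the cells from others, since all spermatid, macrophage and fibroblast markers were also above 0 in both primary groups and all 8 Sertoli cell markers in MLTC-1 cells with DMSO. Nothing in the labels says that replicates came from different cultures or animals. The p-values thus reflect only how these samples vary, which may be technical. Counts of Acaca are uncertain, since 52.6% of the 50-base windows of its longest transcript also occur in the processed pseudogene Gm5182. The shared windows made up 4.66% for Scd1 and 4.01% for Scd2, mostly with other Scd genes, and 4.59% for Elovl6. They made up 0.227% for Elovl1 and 0.161% for Fads2, and none were found for Fasn, Acly, Fads1 and Elovl5. The strand setting of the counting is not given in the sources used here, so reads of Elovl1 and of Cdc20, which overlaps 1.94% of its exon bases on the opposite strand, cannot be told apart.

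Of these genes, 7 of 10 matched a RefSeq promoter entry on GRCm38.p6. The 250 bases before the start are shown for 3 genes that fell with hymeglusin (Fasn, Acly and Elovl5) and for Elovl1, which did not pass that test. Capitals mark matches, on either strand, to ATTGG (the inverted CCAAT box read by NF-Y), GGGCGG (the GC box read by Sp1), CACGTG (the E-box read by the USF and ChREBP factors) and TCACCC, a core found within the sterol response element. The windows are chr11:120824548-120824797 on the minus strand for Fasn, chr11:100528001-100528250 on the minus strand for Acly, chr9:77917115-77917364 on the plus strand for Elovl5 and chr4:118427843-118428092 on the plus strand for Elovl1.
Fasn: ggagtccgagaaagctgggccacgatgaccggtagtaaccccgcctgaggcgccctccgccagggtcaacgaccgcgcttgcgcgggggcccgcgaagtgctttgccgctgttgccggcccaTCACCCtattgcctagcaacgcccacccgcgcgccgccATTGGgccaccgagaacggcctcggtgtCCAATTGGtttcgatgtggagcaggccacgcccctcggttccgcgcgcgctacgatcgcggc
Acly: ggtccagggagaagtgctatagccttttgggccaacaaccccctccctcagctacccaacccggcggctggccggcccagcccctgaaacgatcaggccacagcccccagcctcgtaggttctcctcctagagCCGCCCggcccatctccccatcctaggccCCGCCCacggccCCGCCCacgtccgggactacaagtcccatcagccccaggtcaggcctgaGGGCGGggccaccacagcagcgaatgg
Elovl5: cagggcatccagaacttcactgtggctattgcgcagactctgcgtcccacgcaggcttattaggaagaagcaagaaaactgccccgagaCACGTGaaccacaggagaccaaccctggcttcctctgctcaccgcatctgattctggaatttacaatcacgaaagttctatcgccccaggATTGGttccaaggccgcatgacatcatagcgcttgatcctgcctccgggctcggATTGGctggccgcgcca
Elovl1: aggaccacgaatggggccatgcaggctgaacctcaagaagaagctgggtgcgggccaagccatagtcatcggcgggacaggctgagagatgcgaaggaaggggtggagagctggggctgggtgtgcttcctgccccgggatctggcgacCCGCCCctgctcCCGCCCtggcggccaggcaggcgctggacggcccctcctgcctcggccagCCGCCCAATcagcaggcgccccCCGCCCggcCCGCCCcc

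In the Fasn window ATTGG occurred at -90 and -59 on the gene's strand and at -62 on the other, the last pair overlapping each other, and TCACCC occurred at -128, counted from the start to the first base of each match. Acly held no CCAAT box in this window but had GGGCGG at -27 and, on the other strand, at -117, -88 and -76. Elovl5 held ATTGG at -71 and -17 and CACGTG at -161. Elovl1 held GGGCGG on the other strand at -101, -89, -39, -17 and -8, and ATTGG, also on the other strand, at -35, where it overlapped the GC box at -39. Of 32851 RefSeq promoter windows of this length, the inverted CCAAT box was found in 33.8%, the GC box in 32.7%, the E-box in 6.02% and the core of the sterol response element in 13.8%. The full sterol response element, of which TCACCC is the core, was in 0.0731% of the windows and in none of the 7 genes. Fads2 held a GC box alone, at -186, and the second Elovl1 window held GC boxes alone, at -48 and -37. Acaca and Elovl6 held none of these motifs. The windows of Acaca and Fads2 and the second of Elovl1 lie wholly or almost wholly inside the annotated gene. Bases before the outer end of Acaca and Fads2 were thus hardly or not searched. In the windows searched, genes that fell with hymeglusin included some with a CCAAT box (Fasn, Elovl5) and some without (Acly, Acaca, Fads2, Elovl6). Elovl1, which did not pass that test, held one in 1 of its windows. A match is a description of letters and does not show that a factor binds there.

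Levels were set across all 4 groups as CPM, the count scaled to library size, with TMM factors over the 10 libraries. Acly, which splits citrate into acetyl-CoA, averaged 869 ± 47.0 CPM with hymeglusin, 1123 ± 34.1 with DMSO, 368 ± 182 at 24 months and 715 ± 28.4 at 2 months (SD, n = 3, 3, 2 and 2, as in the sentences that follow). Acaca, the carboxylase that makes malonyl-CoA, averaged 68.2 ± 0.924, 97.7 ± 6.27, 27.4 ± 1.92 and 45.3 ± 1.06 CPM in the same order of groups. Fasn, the synthase that builds palmitate, averaged 1548 ± 101 with hymeglusin, 1753 ± 129 with DMSO, 88.8 ± 3.15 at 24 months and 298 ± 18.6 at 2 months. For these genes the order was DMSO, hymeglusin, 2 months, 24 months from high to low, and neighbours did not overlap except hymeglusin and DMSO for Fasn on this scale.

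Among the stearoyl-CoA desaturases, which put the first double bond into saturated chains, Scd1 averaged 381 ± 21.3 CPM with hymeglusin, 666 ± 7.35 with DMSO, 296 ± 88.6 at 24 months and 359 ± 35.6 at 2 months. Scd2, the form known for its expression in brain and in many other tissues, averaged 1620 ± 50.2, 2639 ± 19.9, 778 ± 310 and 1772 ± 138 CPM in that order. DMSO was highest for both genes, the hymeglusin libraries overlapped with the 2-month libraries for both, and for Scd1 so did the 24-month with the 2-month libraries. Elovl6, which lengthens palmitate to stearate, had 188 ± 7.44, 323 ± 7.79, 38.0 ± 1.68 and 125 ± 7.16 CPM, with all neighbours apart.

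The genes of polyunsaturated fatty acids had another order. Fads2, the delta-6 desaturase and first step of that branch, averaged 387 ± 19.5 CPM with hymeglusin, 624 ± 17.4 with DMSO, 1229 ± 45.1 at 24 months and 2964 ± 201 at 2 months. Fads1, the delta-5 desaturase, averaged 265 ± 5.03, 348 ± 15.4, 651 ± 54.7 and 1375 ± 116 CPM. Elovl5, which lengthens the polyunsaturated chains between the Fads2 and Fads1 steps, averaged 593 ± 6.16, 692 ± 27.1, 776 ± 87.5 and 1138 ± 89.1 CPM. All of them were highest at 2 months, then at 24 months, then with DMSO and lowest with hymeglusin, without overlap between neighbours. Elovl1, which makes saturated and monounsaturated very long chains for sphingolipids, varied least, by a factor of 1.73 between its highest and lowest group mean, and had 90.2 ± 5.96, 85.3 ± 1.79, 103 ± 42.9 and 59.6 ± 4.94 CPM. Fasn varied most, by a factor of 19.7, followed by Elovl6 (8.51) and Fads2 (7.65).

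**Figure D1:**
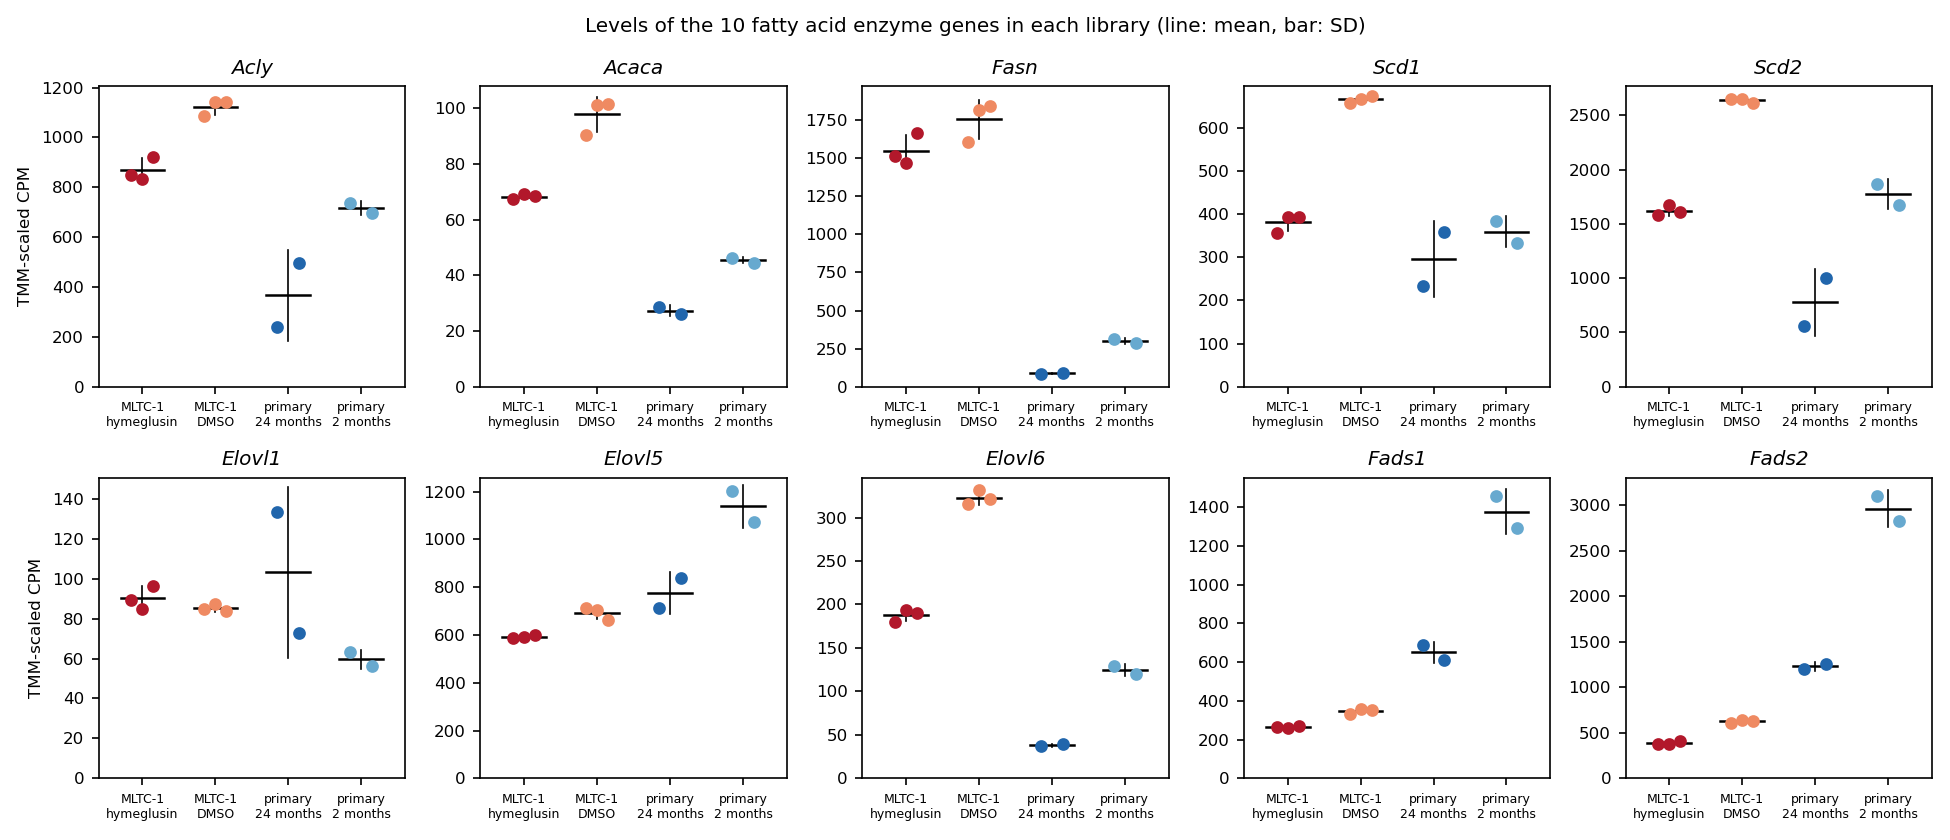
Points are single libraries, horizontal lines group means and vertical bars SD (n = 3 for the MLTC-1 groups, 2 for the primary groups), in CPM scaled by TMM over all 10 libraries, with a separate linear axis from 0 for each gene. Fads1, Fads2 and Elovl5 are highest in the 2-month cells, while Fasn, Acaca, Acly, Scd1, Scd2 and Elovl6 are highest in MLTC-1 cells with DMSO.

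To compare genes with each other, counts were divided by the length of the longest annotated transcript and scaled to the same total in each library (TPM). Per length, Fads2 led in both primary groups, with 632 ± 183 TPM at 24 months and 2452 ± 123 TPM at 2 months, where it ranked 32 among 19121 genes with a count. Scd2 led in both MLTC-1 groups, with 899.5 ± 43.1 TPM with hymeglusin and 1417 ± 5.90 TPM with DMSO, where it ranked 56 among 16549. Acaca was lowest of the 10 in every group, from 4.59 ± 0.855 TPM at 24 months to 30.1 ± 2.11 TPM with DMSO.

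Of the summed TPM of the 10 genes, Fads1 and Fads2 together took 16.3% ± 0.191 with hymeglusin, 17.5% ± 0.30 with DMSO, 47.7% ± 4.93 at 24 months and 55.9% ± 0.00175 at 2 months. Fasn took 12.5% ± 0.529 with hymeglusin, 10.2% ± 0.619 with DMSO, 0.727% ± 0.0477 at 24 months and 1.24% ± 0.0128 at 2 months. Scd2 took 24.2% ± 0.984, 28.3% ± 0.520, 11.5% ± 3.50 and 13.6% ± 0.0703 in the same order. Of this set, MLTC-1 cells thus held mainly Scd2, Acly and Elovl5 transcripts, and primary cells mainly Fads2, Elovl5 and Fads1. Within families, Scd1 made up 21.0% ± 0.659 of Scd1 plus Scd2 with hymeglusin, 22.2% ± 0.302 with DMSO, 30.4% ± 2.23 at 24 months and 18.6% ± 0.322 at 2 months. Elovl6 made up 10.7% ± 0.413 of the sum of Elovl1, Elovl5 and Elovl6 with hymeglusin and 15.5% ± 0.518 with DMSO. It made up 1.86% ± 0.0387 at 24 months and 4.53% ± 0.0921 at 2 months. Other elongases were not part of this sum. Elovl5 was the largest part of it in every group, at 71.1% ± 0.758 to 88.4% ± 0.0557. The shares use a single length per gene, so differences between ages and between cell sources carry the trends with transcript length described below. After an offset for length, the log2 fold change with age was -0.81 for Elovl6, -0.73 for Elovl5 and -0.31 for Fasn. Without it they were -1.77, -0.60 and -1.80.

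**Figure D2:**
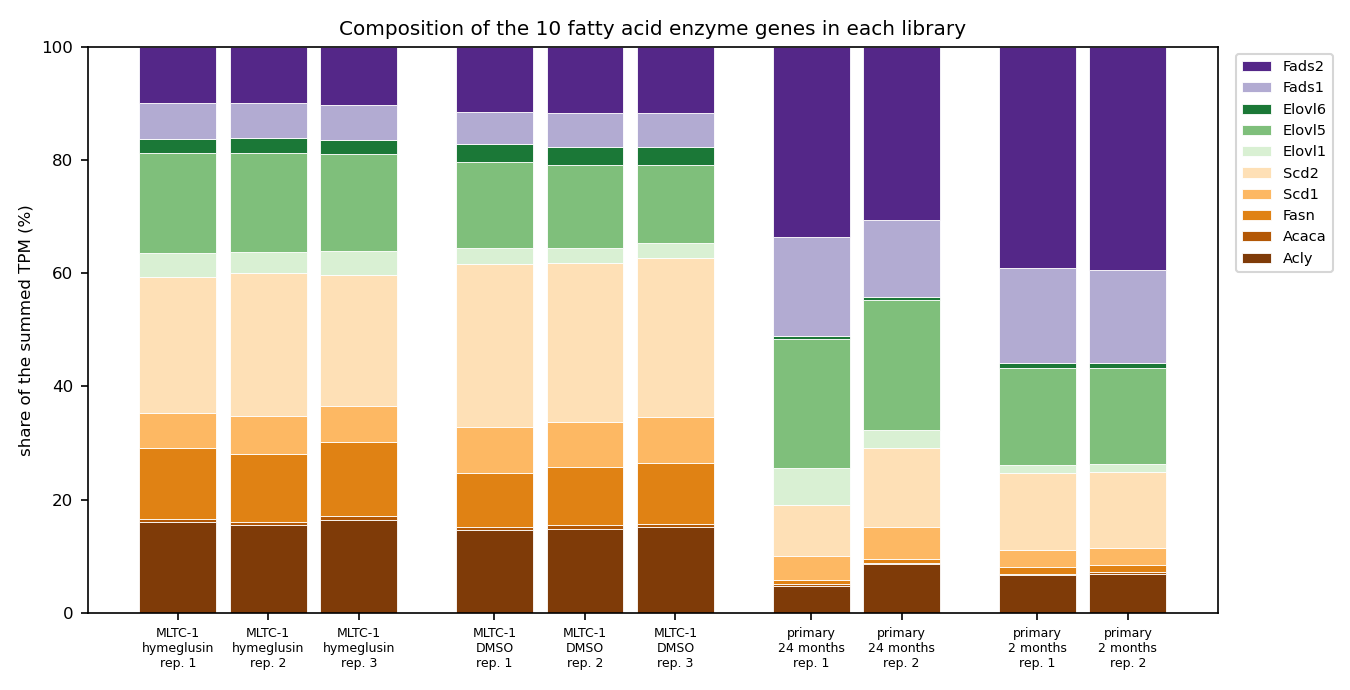
Each bar is a library and its segments are the share, in percent, of each gene in the summed TPM of the 10 genes. Purple (Fads1 and Fads2) takes 16.3% and 17.5% on average in the hymeglusin and DMSO groups, against 47.7% and 55.9% in the 24-month and 2-month groups. Shares are not adjusted for the trends with transcript length between groups.

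The first comparison asks how hymeglusin changed these genes in MLTC-1 cells. From palmitate synthesis to the desaturases, 9 of the 10 genes fell with hymeglusin and Elovl1 did not pass the test. The falls were deepest for Scd1, Elovl6, Scd2 and Fads2, which lost 41.4% to 46.0% of their level, and shallowest for Fasn and Elovl5. Of all 12873 genes tested, 48.3% passed an adjusted p of 0.05 in edgeR's quasi-likelihood test, 24.5% lower and 23.8% higher, and the 9 lower of 10 are to be read against that 24.5%. The hymeglusin libraries lay wholly below the DMSO libraries for the same 9 genes. Over all genes, 27.3% lay wholly below and 27.7% wholly above. The median log2 fold change of the 10 genes was -0.54, against 0.01 over all genes.

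In the cytosolic steps, Acly had 862, 847 and 916 CPM with hymeglusin, against 1162, 1207 and 1229 with DMSO, on the scale of the 6 MLTC-1 libraries alone. Its log2 fold change was -0.45 (SE 0.0453, adjusted p = 1.9e-10). Acaca had 68.4, 70.1 and 67.9 CPM with hymeglusin, against 97.0, 107 and 109 with DMSO (log2 fold change -0.60, SE 0.0555, adjusted p = 3.18e-11). Hymeglusin libraries were low for both genes, with gaps wider than the spread within either group. Fasn, the most abundant of the cytosolic genes, had 1538, 1492 and 1652 CPM with hymeglusin, against 1722, 1916 and 1978 with DMSO. It fell by 16.6%, the smallest fall among the called genes (log2 fold change -0.26, SE 0.0493, adjusted p = 3.52e-05), and its nearest libraries, hymeglusin replicate 3 and DMSO replicate 1, were close to touching.

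Scd1, a desaturase of the first double bond, fell most of the 10 genes, with the elongase Elovl6 next and Scd2 after it. Scd1 had 362, 399.8 and 390.1 CPM with hymeglusin, against 706, 704 and 723 with DMSO, a fall by 46.0% (log2 fold change -0.89, SE 0.0467, adjusted p = 1.78e-17). Scd2 had 1604, 1701 and 1596 CPM with hymeglusin, against 2839.5, 2803 and 2810.2 with DMSO (log2 fold change -0.79, SE 0.0436, adjusted p = 7.21e-17). Every hymeglusin library of both genes was far below every DMSO library, and the Scd1 share of the pair was 21.0% with hymeglusin and 22.2% with DMSO. Elovl6, which works beside Scd1 on the chain of stearate and oleate, had 183, 197 and 189 CPM with hymeglusin, against 339, 350.1 and 345 with DMSO (log2 fold change -0.86, SE 0.0470, adjusted p = 4.59e-17).

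Of the polyunsaturated branch, Fads2 had 379, 385 and 407 CPM with hymeglusin, against 649, 676 and 675 with DMSO (log2 fold change -0.77, SE 0.0458, adjusted p = 4.51e-16). Fads1 had 269.6, 264 and 269 CPM with hymeglusin, against 355, 380.5 and 380.0 with DMSO, a smaller fall (log2 fold change -0.47, SE 0.0464, adjusted p = 1.21e-10). The Fads2 share of the pair was 61.6% ± 0.875 with hymeglusin and 66.3% ± 0.390 with DMSO, and the libraries of the groups did not overlap in it. Elovl5 had 599, 599 and 596 CPM with hymeglusin, against 762, 745 and 710.3 with DMSO (log2 fold change -0.31, SE 0.0447, adjusted p = 5.95e-07). Elovl1 had 90.9, 85.9 and 95.9 CPM with hymeglusin, against 91.1, 92.1 and 89.8 with DMSO. Its groups overlapped (SE 0.0541 on the log2 scale, adjusted p = 0.983), and its sign turned with the scaling, from -0.00 with TMM to 0.10 with total counts.

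**Figure D3:**
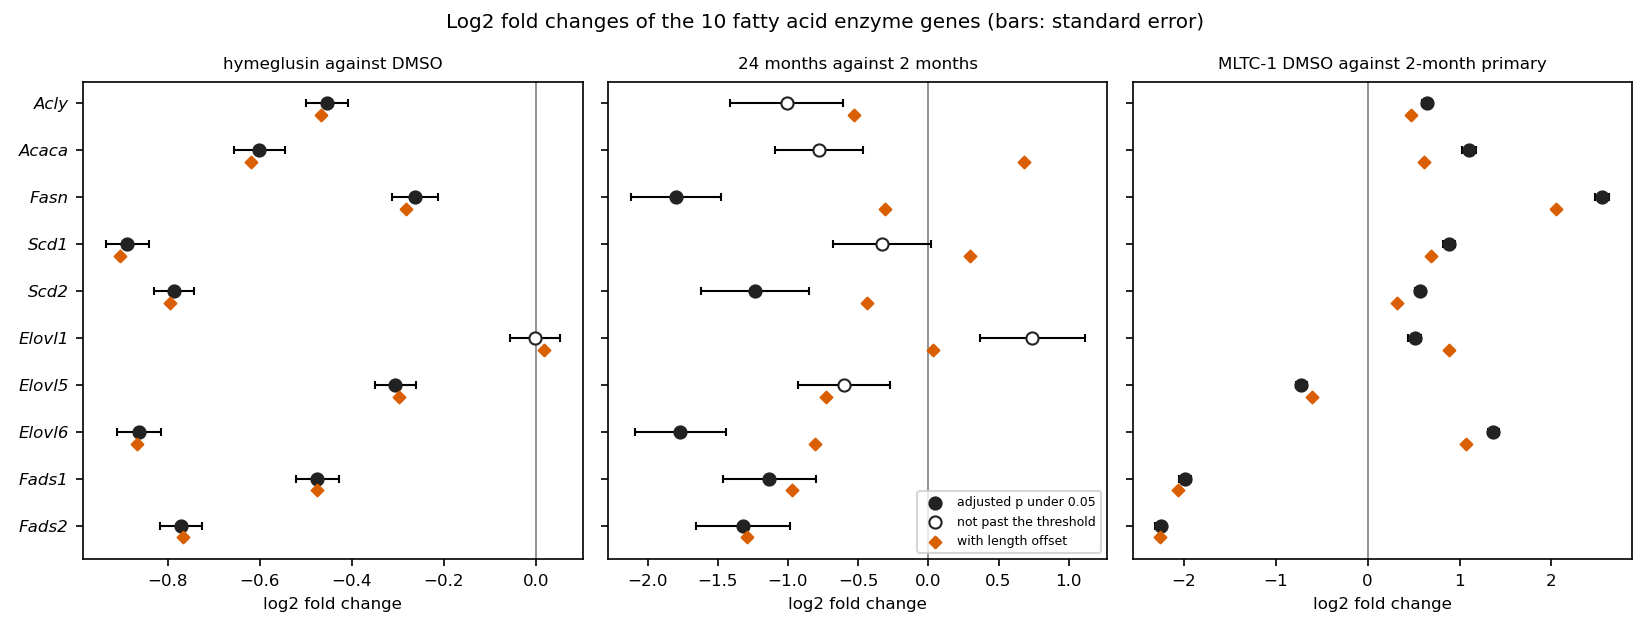
Circles are log2 fold changes with bars of 1 standard error for hymeglusin against DMSO, 24 months against 2 months and MLTC-1 with DMSO against 2-month primary cells. Filled circles passed an adjusted p of 0.05, and diamonds show the same fold change after an offset for transcript length: they lie on the circles for hymeglusin and apart from them between the ages, where the circle of Fasn is at -1.80 and its diamond at -0.31.

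The falls did not rest on 1 library: the count stayed at 9 of 10 without any of the 6 MLTC-1 libraries. Over all genes, 2753 to 3074 were then lower. In a fit of all 10 libraries, which takes the wider spread of the primary cells, 5 of the 10 were lower. That fit called 289 of all 17109 genes lower. Fasn, Acly, Scd2 and Elovl5 no longer passed in it, with adjusted p of 0.359, 0.374, 0.0504 and 0.237. Leydig cell markers summed to 6531 to 6684 CPM with hymeglusin and to 8934 to 9182 CPM with DMSO. Of the 8 tested markers, 5 were lower and 1 higher (24.5% and 23.8% over all genes). Their part in the result was not tested.

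Among the partners of these enzymes, named from lists of the pathway, lower calls outnumbered higher ones except for the kinases and degradation factors. Counts in these lists are to be read against the 24.5% of all genes called lower and the 23.8% called higher. Of the genes listed around acetyl-CoA, malonyl-CoA and NADPH, not all of which supply them, 7 of 9 fell. Mlycd (log2 fold change -0.13) and Acacb (-0.05) did not pass (adjusted p = 0.0987 and 0.553). The mitochondrial citrate carrier Slc25a1 had 144 ± 11.2 CPM with hymeglusin and 219 ± 7.08 with DMSO (log2 fold change -0.61, SE 0.0526, adjusted p = 6.29e-12), and the NADPH-producing Idh1 (-0.48) and Me1 (-0.46) fell with it. Of the acyl-CoA synthetases, which activate fatty acids for use, 6 of 7 fell, led by Acsl3 (log2 fold change -0.84, SE 0.0590, adjusted p = 4.06e-14), Acsbg1 (-0.53) and Slc27a1 (-0.53), while Acsl5 rose (0.89, SE 0.167, adjusted p = 3.24e-05). Acsl5 was at a low level, with 3.12 CPM with DMSO and 5.82 with hymeglusin. The list medians were -0.30 and -0.40, against 0.01 over all genes.

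Of the elongation cycle and the electron donors of the desaturases, 6 of 10 fell and 1 rose (median -0.33). The dehydratase Hacd3 (log2 fold change -0.49), the enoyl reductase Tecr (-0.44) and the cytochrome b5 of the outer mitochondrial membrane, Cyb5b (-0.34), fell, and Hacd4 rose (0.98, SE 0.288, adjusted p = 0.00489). Of the other elongases and desaturases, 4 of 7 fell, among them Degs1 (-0.34), Elovl4 (-0.51) and Scd3 (-0.69), and Fads3 rose (0.58, SE 0.146, adjusted p = 0.00134). In glycerolipid assembly, 6 of 13 fell, led by the acyltransferases Gpam (log2 fold change -0.60, adjusted p = 1.33e-13), Agpat3 (-0.55) and Lpcat3 (-0.50), and Dgat2, which closes triglyceride synthesis, rose (0.63, adjusted p = 0.00292). Mitochondrial fatty acid synthesis, a separate pathway, had 2 of 6 lower, Oxsm (-0.36) and Ndufab1 (-0.31), with 24.5% of all genes lower. The genes named here as rising were at low levels. From DMSO to hymeglusin, mean CPM went from 0.875 to 1.75 for Hacd4, from 4.52 to 6.68 for Fads3 and from 2.97 to 4.61 for Dgat2.

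Of 16 tested transcriptional regulators of lipogenesis, 10 fell and 3 rose (median -0.24), against 24.5% and 23.8% of all genes. Mid1ip1, which aids the polymerization of acetyl-CoA carboxylase, fell most by p (log2 fold change -0.54, adjusted p = 1.59e-10), with the SREBP retention factor Insig1 (-0.45, SE 0.0479, adjusted p = 9.50e-10) and the fatty acid sensor Ppara (-0.45). Srebf1 had 289.8 ± 11.3 CPM with hymeglusin and 343 ± 18.3 with DMSO (log2 fold change -0.25, SE 0.0486, adjusted p = 7.19e-05). Srebf2 fell less (-0.15, SE 0.0474, adjusted p = 0.00743), and its adjusted p reached 0.0551 without a library and 0.398 with total counts. The oxysterol receptor gene Nr1h3 rose (0.68, SE 0.126, adjusted p = 2.99e-05), as did Usf1 (0.41) and Mlx (0.18, adjusted p = 0.0314, up to 0.115 without a library). Nr1h3 was at a low level, with 6.68 CPM with DMSO and 10.8 with hymeglusin. Mlxipl, which encodes ChREBP, had 65.0 ± 3.29 CPM with hymeglusin and 62.4 ± 5.25 with DMSO and did not pass (0.06, adjusted p = 0.487). Of the kinases and degradation factors that act on these enzymes, 5 of 10 rose and 2 fell. Those that rose included the AMPK subunits Prkaa1 (0.24) and Prkab2 (0.29) and, at a low level, Trib1 (0.40). Mean CPM of Trib1 was 7.82 with DMSO and 10.4 with hymeglusin. The AMPK subunits Prkaa2 (-0.29) and Prkag2 (-0.21) fell.

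**Figure D4:**
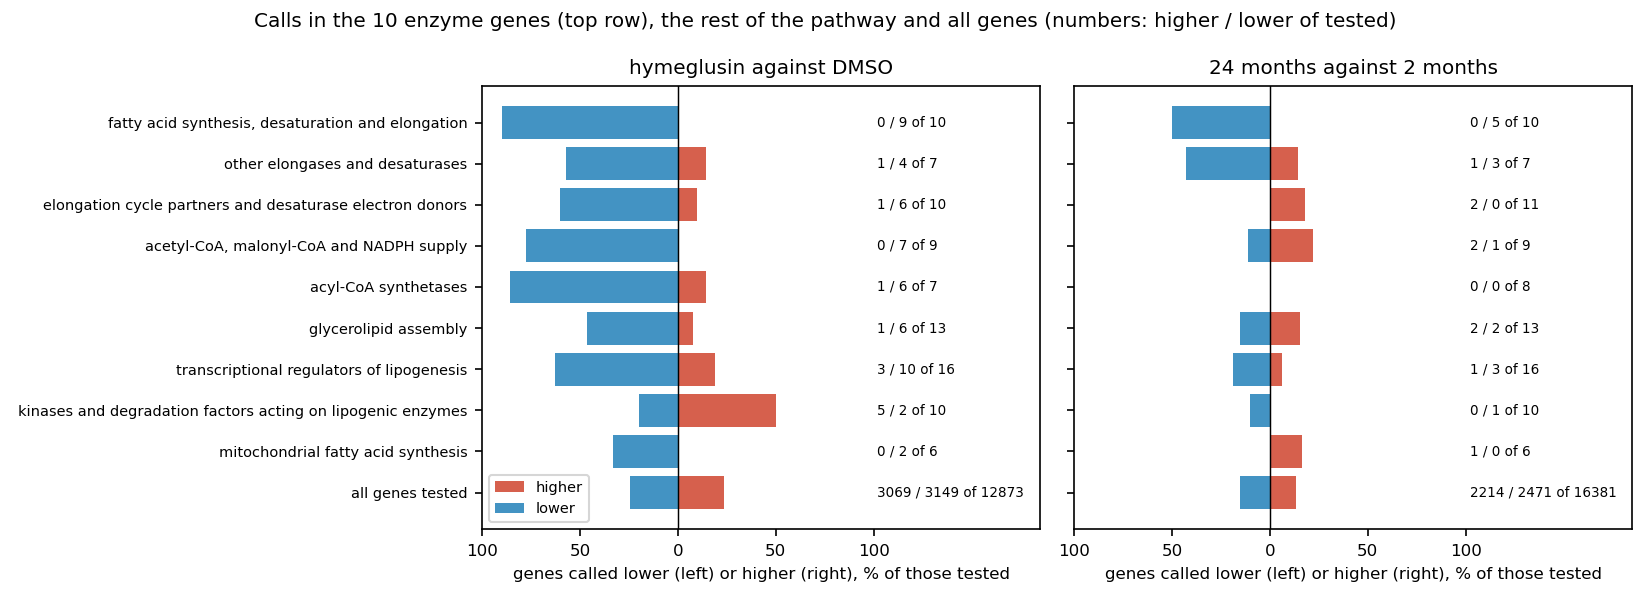
Bars give the percent of tested genes called lower (left, blue) or higher (right, red) in the 10 enzyme genes, in the pathway lists and over all genes, for hymeglusin against DMSO and for 24 months against 2 months. With hymeglusin lower calls exceed higher ones in all lists but the kinases and degradation factors, and 24.5% of all genes are lower and 23.8% higher. Between the ages the lists are to be read against the 28.6% of all genes called.

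The second comparison sets primary Leydig cells of 24-month mice against those of 2-month mice. Fasn, Elovl6, Fads2, Scd2 and Fads1 fell at 24 months, to between 0.288 and 0.456 of the 2-month level, and the other 5 genes did not pass the test. Across all genes, long transcripts were lower at 24 months, and with an offset for transcript length the calls left were the polyunsaturated desaturases Fads1 and Fads2. Of all 16381 genes tested, 28.6% passed, 15.1% lower and 13.5% higher. The count of 5 rested on single libraries, and the calls over all genes moved with it. Leaving out a library leaves 1 in its group, so only effect sizes are given here. The median log2 fold change of the 10 genes was -0.97 without 2-month replicate 1 and -1.19 without 2-month replicate 2. It was -0.91 without 24-month replicate 1 and -1.26 without 24-month replicate 2. Over all genes it lay between -0.13 and 0.02 in these fits. The 24-month libraries lay wholly below the 2-month libraries for 8 of the 10 genes, which held for 37.9% of all genes, and wholly above for Elovl1, which held for 35.9%. The median log2 fold change was -1.07 for the 10 genes and -0.01 over all genes. In such bulk samples, fewer cells of a type and less RNA per cell cannot be told apart.

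For polyunsaturated fatty acids, Fads2 had 1110.5 and 1179 CPM at 24 months, against 3086 and 2632 at 2 months, on the scale of the 4 primary libraries. Its log2 fold change was -1.32 (SE 0.335, adjusted p = 0.0220), and -1.29 (adjusted p = 0.0120) with the length offset. Fads1 had 639 and 572 CPM at 24 months, against 1448 and 1206 at 2 months (log2 fold change -1.13, SE 0.330, adjusted p = 0.0324; with the length offset -0.97, adjusted p = 0.0423). The 24-month libraries lay close together and far below the 2-month libraries in both genes. Leaving out a 2-month library ended both calls: the adjusted p was 0.348 for Fads2 and 0.434 for Fads1 without replicate 1, and 0.204 and 0.250 without replicate 2. Elovl5, which works between them, had 663 and 784 CPM at 24 months, against 1193 and 1002 at 2 months, and did not pass (log2 fold change -0.60, SE 0.329, adjusted p = 0.187; with the length offset -0.73, adjusted p = 0.108).

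In the cytosolic steps, Fasn had 80.3 and 85.1 CPM at 24 months, against 309 and 266 at 2 months. The log2 fold change was -1.80 (SE 0.323, adjusted p = 0.00937), but -0.31 (adjusted p = 0.525) with the length offset. Acaca had 26.6 and 24.3 CPM at 24 months, against 45.8 and 41.6 at 2 months (log2 fold change -0.78, adjusted p = 0.0878), and its sign turned with the length offset (0.68, adjusted p = 0.183). The 24-month libraries lay below the 2-month libraries in both genes as counted, and the direction of Acaca depends on whether length is offset. Acly had 222 and 464 CPM at 24 months, against 731 and 649 at 2 months, and did not pass (log2 fold change -1.01, SE 0.403, adjusted p = 0.0858). The 24-month libraries differed more from each other in Acly than the 2-month libraries did.

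Of the enzymes of monounsaturated chains, Elovl6 had 34.1 and 36.6 CPM at 24 months, against 129 and 112 at 2 months (log2 fold change -1.77, SE 0.324, adjusted p = 0.00960; with the length offset -0.81, adjusted p = 0.0897). Scd2 had 518 and 933 CPM at 24 months, against 1858 and 1562 at 2 months (log2 fold change -1.24, SE 0.384, adjusted p = 0.0398; with the length offset -0.44, adjusted p = 0.331). Scd1 had 216 and 335 CPM at 24 months, against 382 and 312 at 2 months, and these groups overlapped (log2 fold change -0.33, SE 0.350, adjusted p = 0.490). Replicate 1 of the 24-month cells was the lower of the pair in Scd1, Scd2 and Acly. The Scd1 share of the pair was 28.8% and 32.0% at 24 months, against 18.4% and 18.8% at 2 months. Elovl1 had 124 and 68.2 CPM at 24 months, against 62.7 and 52.3 at 2 months, and did not pass (log2 fold change 0.74, SE 0.373, adjusted p = 0.158; with the length offset 0.03, adjusted p = 0.955).

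The relation to length was measured over all genes. The slope of log2 CPM per doubling of transcript length was taken relative to the mean of the libraries of the same cell source. It was -0.449 and -0.173 at 24 months, against 0.321 and 0.30 at 2 months. Among the MLTC-1 libraries it lay between -0.0280 and 0.0273, which does not compare them with primary cells. With genes split into 10 groups by transcript length, the median log2 fold change with age ran from 1.41 in the shortest genes to -1.41 in the longest, the group of Fasn (10050 nt) and Acaca (9513 nt). The median was -0.99 in the group of Scd2 and Elovl6, -0.70 in that of Acly and Scd1, -0.26 in that of Fads1 (3460 nt) and Fads2 (3150 nt), 0.01 in that of Elovl5 and 0.56 in that of Elovl1 (1811 nt). Fads2 lay 1 or more log2 units below the genes of its length, and Acaca and Scd1 lay above theirs. With the length offset, 2 of the 10 genes were lower, with a median of -0.48, against -0.09 over all genes.

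**Figure D5:**
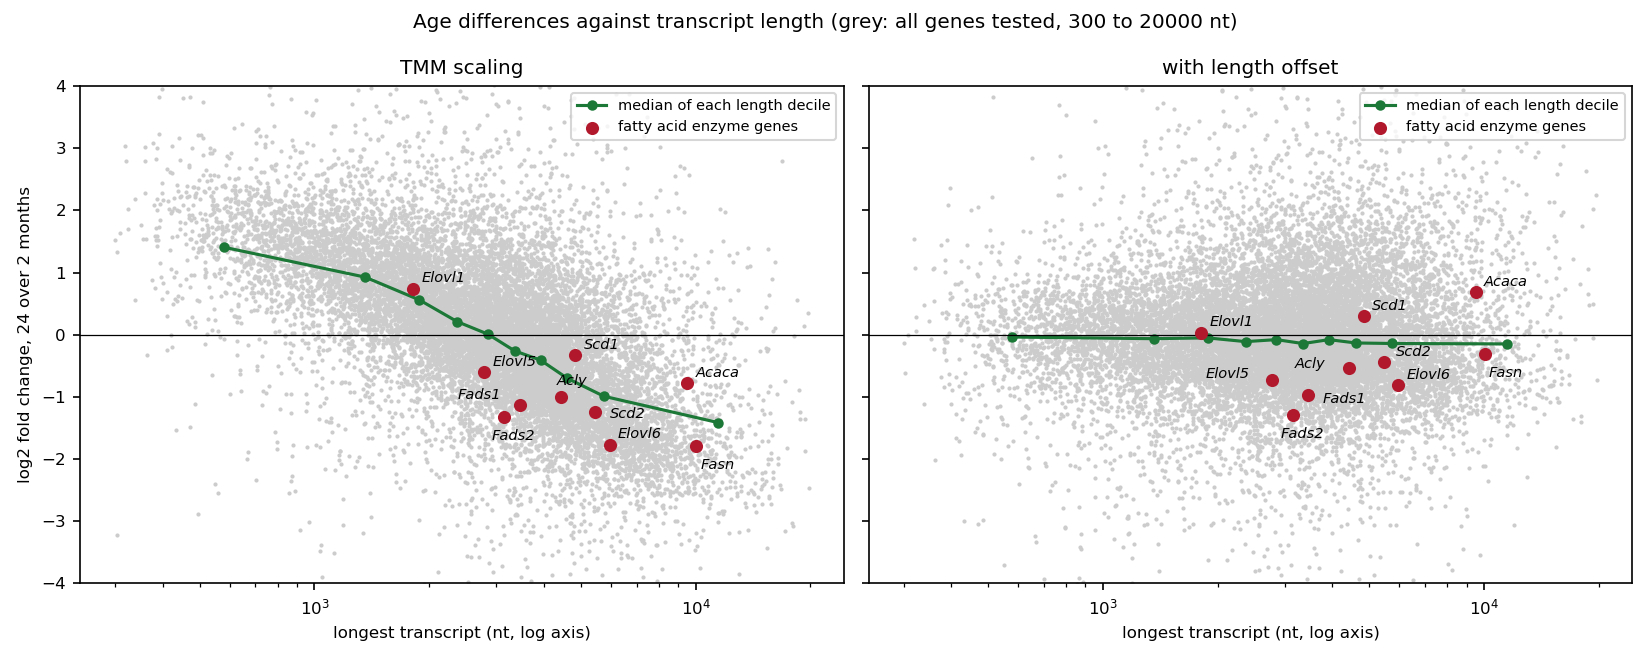
Each point is a gene, with the longest annotated transcript in nucleotides on a log axis and the log2 fold change of 24 months over 2 months on the vertical axis, with TMM scaling (left) and with the length offset (right), within 4 log2 units of 0. The green medians fall from 1.41 to -1.41 with length on the left and lie between -0.15 and -0.04 on the right, where Fads2 (-1.29) is the lowest of the 10 genes.

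Markers of other cell types also differed between the ages, and many of their calls, too, ended with the length offset. Over all genes 13.5% were higher and 15.1% lower, and with the offset 1025 and 863 of 16025. Spermatid and sperm markers summed to 5632 to 10772 CPM at 24 months and 1720 to 2321 CPM at 2 months, with 7 of 8 higher, but 1 of 8 with the offset (list median 2.01 without it and 0.56 with it). Macrophage markers summed to 49.2 to 61.7 CPM at 24 months, against 13.7 to 15.8 at 2 months (4 of 10 higher, 2 with the offset), and neutrophil markers to 15.7 to 103 CPM, against 0.741 to 0.947 (6 of 6 tested higher, 2 with the offset; Ly6g at 0 in both groups and 6 of the 7 at 0 at 2 months). Fibroblast and stroma markers summed to 140.0 to 225 CPM at 24 months, against 840.1 to 847 at 2 months (4 of 6 lower and 1 higher, 3 lower with the offset). Markers of adipocytes, cells rich in these enzymes, summed to 46.3 to 80.6 CPM at 24 months, against 99.1 to 106 at 2 months (2 of 3 tested higher and 1 lower, 1 in each direction with the offset; Lep at 0 in both groups). Leydig cell markers summed to 19553 to 29164 CPM at 24 months and 20064 to 22150 CPM at 2 months (1 of 9 higher and 1 lower). The part of other cells in the differences of the 10 genes was not tested.

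The calls in the rest of the pathway with age are to be read against the 28.6% of all genes that passed. Of the other elongases and desaturases, 3 of 7 fell and 1 rose: Fads3, a desaturase next to Fads1 and Fads2 on the chromosome, had 19.9 ± 2.90 CPM at 24 months and 128 ± 36.1 at 2 months (log2 fold change -2.68, SE 0.367, adjusted p = 0.00411; with the length offset -2.44, adjusted p = 0.00110). Fads6 (-2.52, adjusted p = 0.0158) and Elovl2 (-1.46, adjusted p = 0.0332), which lengthens polyunsaturated chains after Elovl5, fell too, and Elovl2 had an adjusted p of 0.0605 with the offset. Elovl4, the elongase of very long polyunsaturated chains, rose to 2.59 ± 0.264 CPM at 24 months, against 0.192 ± 0.0404 at 2 months (log2 fold change 3.71, SE 0.707, adjusted p = 0.0104). The 8 tested acyl-CoA synthetases did not pass, with Acsl4 nearest (-1.31, SE 0.477, unadjusted p = 0.0214, adjusted p = 0.0644 in edgeR). With the length offset 1 of the 8 was higher, and over all genes 1025 of 16025 were. The list median went from -0.03 to 0.30. In glycerolipid assembly, Gpam had 60.5 ± 24.3 CPM at 24 months and 354 ± 48.2 at 2 months (log2 fold change -2.55, adjusted p = 0.00614; with the offset -1.59, adjusted p = 0.00757) and Lpin2 fell (-1.53), while Agpat2 (1.43) and Dgat2 (1.33) rose. Lpin2, Agpat2 and Dgat2 did not pass with the length offset (adjusted p = 0.208, 0.246 and 0.0617).

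Of the genes around acetyl-CoA, malonyl-CoA and NADPH, Acacb fell (log2 fold change -1.79, and with the offset -0.41, adjusted p = 0.429). Slc25a1 rose (1.49, and with the offset 0.67, adjusted p = 0.188). So did Acss2, which makes acetyl-CoA from acetate (1.28, adjusted p = 0.0209, and with the offset 1.49, adjusted p = 0.00829). Of the elongation partners, Tecr (1.58) and Cyb5a (1.45) rose among 11 tested, and neither passed with the offset (adjusted p = 0.342 and 0.496). With the offset 1 of the 11 was lower, and over all genes 863 of 16025 were. Of 16 regulators, Ppara (-2.27, adjusted p = 0.00565), Rxra (-1.31) and Srebf2 (-1.07, adjusted p = 0.0381) fell and Mid1ip1 rose (1.04, adjusted p = 0.0383), of which Ppara passed with the offset too (-2.13, adjusted p = 0.00154). Srebf1 had 127 ± 44.3 CPM at 24 months and 73.0 ± 4.88 at 2 months (log2 fold change 0.80, adjusted p = 0.113; with the offset 1.29, adjusted p = 0.0316), so its value ran opposite to that of Fads1 and Fads2. Insig1 (-0.55, adjusted p = 0.270), Nr1h3 (0.39, adjusted p = 0.414) and Mlxipl (0.13, adjusted p = 0.814) did not pass. Of the kinases and degradation factors 1 of 10 fell (Prkaa1, -0.97, adjusted p = 0.0498), and of mitochondrial fatty acid synthesis 1 of 6 rose (Ndufab1, 1.23, adjusted p = 0.0241). Of all these pathway calls with age, those of Fads3, Fads6, Gpam and Ppara held with the length offset and without any single library, with adjusted p of at most 0.0283 there. The list medians ran from -0.55 for the kinases and degradation factors to 0.68 for mitochondrial synthesis.

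The third comparison sets MLTC-1 cells with DMSO against 2-month primary cells. MLTC-1 cells held more transcript of the steps that make and desaturate saturated chains and less of the polyunsaturated branch. All 10 genes passed the test, 7 higher and 3 lower, but so did 82.8% of all 16092 genes (34.4% higher and 48.5% lower), so that a call by itself says little here. The MLTC-1 libraries did not overlap with the 2-month libraries for any of the 10 genes, which held for 37.7% of all genes on the higher side and 51.7% on the lower side. The median log2 fold change was 0.61 for the 10 genes and -0.27 over all genes. Fold changes followed transcript length here too, with a median of -1.84 in the shortest of the 10 length groups and 0.23 in the longest. With the length offset the 10 genes kept their directions, but sizes moved. Fasn went from 2.55 to 2.05, Acaca from 1.10 to 0.62, Scd2 from 0.57 to 0.32 and Elovl1 from 0.51 to 0.89. Fads2 (-2.26) then differed most. Spermatid and sperm markers summed to 0.198 to 0.455 CPM in MLTC-1 cells, against 1720 to 2321 in 2-month cells, and fibroblast and stroma markers to 1.55 to 1.92 CPM, against 840.1 to 847. Leydig cell markers summed to 8934 to 9182 CPM in MLTC-1 cells, against 20064 to 22150 in 2-month cells, with 7 of 9 lower and 2 higher and a list median of -2.37. Their part in the differences of the 10 genes was not tested. Line, culture, solvent and preparation cannot be told apart in this comparison, which shares the DMSO and 2-month libraries with the others.

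Fasn had 1660.2, 1851 and 1908 CPM in MLTC-1 cells, against 319 and 298 in 2-month cells, on the scale of these 5 libraries, the widest difference of the 10 (log2 fold change 2.55, SE 0.0791, adjusted p = 9.25e-09). Elovl6 had 327, 338 and 332 CPM in MLTC-1 cells, against 133 and 125 in 2-month cells (log2 fold change 1.37, SE 0.0595, adjusted p = 6.61e-08). Acaca had 93.5, 103 and 105 CPM in MLTC-1 cells, against 47.2 and 46.6 in 2-month cells (log2 fold change 1.10, SE 0.0748, adjusted p = 1.03e-06). These genes were above all 2-month libraries by more than the spread of either group. Smaller differences in the same direction were found for Scd1 (680.3 to 697 CPM in MLTC-1 cells, 349 to 394 in 2-month cells, log2 fold change 0.88), Acly (1121 to 1185 and 727 to 754 CPM, 0.64), Scd2 (2709 to 2738 and 1751 to 1916 CPM, 0.57) and Elovl1 (86.7 to 89.0 and 58.7 to 64.6 CPM, 0.51), with adjusted p from 1.82e-06 to 9.87e-05.

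Fads2 had 626, 653 and 651 CPM in MLTC-1 cells, against 3183 and 2951 in 2-month cells (log2 fold change -2.25, SE 0.0568, adjusted p = 2.71e-09). Fads1 had 342, 368 and 367 CPM in MLTC-1 cells, against 1493 and 1352 in 2-month cells (log2 fold change -1.99, SE 0.0641, adjusted p = 1.14e-08). Fads2 was thus at 0.210 and Fads1 at 0.252 of the 2-month level. Elovl5 had 735, 719.7 and 685 CPM in MLTC-1 cells, against 1230.3 and 1124 in 2-month cells (log2 fold change -0.72, SE 0.0613, adjusted p = 4.44e-06). The third desaturase of the cluster, Fads3, was lower as well, with 4.36 ± 0.650 CPM in MLTC-1 cells and 136 ± 30.8 in 2-month cells (log2 fold change -4.98, SE 0.169, adjusted p = 5.31e-08).

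Counts in the pathway lists are to be read against the 34.4% of all genes higher and the 48.5% lower. Among the regulators, 10 of 16 were higher in MLTC-1 cells and 4 lower. Srebf1 had 331 ± 18.0 CPM in MLTC-1 cells and 78.4 ± 0.633 in 2-month cells (log2 fold change 2.08, SE 0.0689, adjusted p = 1.33e-08), and Srebf2 (1.83), Mlxipl (1.81) and the SREBP escort Scap (1.40) were higher too. Nr1h3 was lower (-1.57, SE 0.175, adjusted p = 2.77e-05), and Insig1 was slightly lower (-0.16, adjusted p = 0.0225, up to 0.124 without a library and 0.985 with the length offset). Of the genes around acetyl-CoA, malonyl-CoA and NADPH, 7 of 9 were higher, among them G6pdx (1.88), Slc25a1 (1.36) and Cs (1.09). The NADPH sources Me1 (-1.31) and Idh1 (-0.53) were lower. Other elongases and desaturases were split (3 higher and 3 lower of 7), with Elovl4 at 25 ± 1.07 CPM in MLTC-1 cells and 0.208 ± 0.0557 in 2-month cells (log2 fold change 6.88). Elongation partners had 3 higher and 7 lower of 11, acyl-CoA synthetases 3 and 5 of 8, and glycerolipid assembly 5 and 7 of 13. Kinases and degradation factors had 7 and 1 of 10, and mitochondrial synthesis 2 and 3 of 6. With the length offset the elongation partners had 4 higher and 4 lower, and their median log2 fold change went from -0.27 to -0.04. Regulators then had 12 higher and 2 lower, and the counts of the other lists moved less. Over all genes, 5862 were higher and 7283 lower of 15739 with that offset.

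The genes whose pattern over the 10 libraries was closest to the mean pattern of the 10 enzymes were sought among 12346 other genes tested in both main comparisons. The measure was the root mean square difference of log2 CPM after each gene was centred on its own mean. The closest were Stat6 (0.108), Jag1 (0.110), Prkar2b (0.113), Spcs3 (0.115) and Ptp4a2 (0.123), against a median of 0.722 over the other genes. The enzymes themselves lay farther from their mean, from 0.263 (Scd1) and 0.272 (Scd2) to 1.21 (Fads2) and 1.42 (Fasn). The mean pattern therefore describes Scd1, Scd2, Acly (0.320) and Acaca (0.366) and not the extremes. Side by side, the comparisons share no samples between hymeglusin and age: Fads2 had a log2 fold change of -0.77 with hymeglusin and -1.32 with age, Elovl6 -0.86 and -1.77, Scd1 -0.89 and -0.33, and Elovl1 -0.00 and 0.74. The difference between these fold changes was not tested.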

How the data were processed

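The authors deposited raw read counts per gene symbol in 1 table. Per the submitters' processing notes, the build was mm10 and the tools included HISAT2 2.2.1, featureCounts 2.0.6, FastQC 0.12.1 and fastp 0.23.4. RNA went into NEBNext Ultra libraries, per the labels' protocols.

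Counts were fitted with edgeR 4.0.16 in R 4.3.3 for each comparison alone: filterByExpr (minimum count 10, minimum total 15), TMM, robust quasi-likelihood F-test, two-sided, Benjamini-Hochberg adjustment over all tested genes, threshold 0.05. SE is the log2 fold change divided by the square root of F. The fit was tested on simulated data. Lengths are those of the longest GENCODE M21 transcript and covered 97.8% or more of tested genes. The length offset is a loess fit per library (span 0.3). All 10 genes passed the count filter in the 3 comparisons. The members, lists and alternatives were chosen with earlier results of these data known. Of each pathway list, up to 3 genes per direction are named by adjusted p, and Srebf1, Srebf2, Insig1, Nr1h3 and Mlxipl always. The labels do not say whether replicate numbers pair samples, and the main fits did not pair them. No column of values belonged to no sample. Alternatives included DESeq2 1.42.0, other scalings and filters, and leaving out each library.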

Additional observations from a re-analysis of the deposited data

How the results depend on the processing

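With hymeglusin, genes called higher and lower numbered 4659 and 1996 with total counts (median of all genes 0.11, 70.0% of calls higher) and 3069 and 3149 with TMM (49.4% higher). They numbered 645 and 289 of 17109 tested in the fit of all 10 libraries, with 5 enzyme genes lower. Without single libraries they ranged from 2644 to 2913 higher and 2753 to 3074 lower. The sign of Elovl1 turned with total counts (0.10), a 10 CPM filter (0.0223), the fit of all 10 libraries (0.0811), the length offset (0.0177) and the length and GC offset (0.0077), and without single libraries its log2 fold change ranged from -0.0425 to 0.0375.

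With age, genes called higher and lower numbered 2214 and 2471. They numbered 531 and 1301 with total counts (median of all genes -0.21, 29.0% of calls higher, against 47.3% with TMM), 4309 and 4559 in the fit of all 10 libraries, 1025 and 863 with the length offset and 1520 and 1636 with the length and GC offset. Without single libraries they ranged from 239 to 4259 higher and 602 to 5628 lower, and the enzyme genes called from 0 to 1 higher and 0 to 9 lower. With 1 library left in a group, it is assumed to vary like the other group. Calls among the enzyme genes moved with those over all genes, fewest without 2-month replicate 1 and most without 24-month replicate 2. The fit of all 10 libraries called 1 higher (Elovl1, adjusted p = 0.0173) and 8 lower, both offsets called 2 lower (Fads1 and Fads2), DESeq2 called 6 (Acly added, adjusted p = 0.0411), total counts and the 10 CPM filter called 4 each (Scd2 lost, adjusted p = 0.0638 and 0.0556). The sign turned with the length offset and with the length and GC offset for Acaca (0.68 and 0.70) and Scd1 (0.30 and 0.35), and with the length and GC offset for Elovl1 (-0.0415). The causes of these changes in calls were not tested.

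Between MLTC-1 and 2-month cells, 7797 genes were lower, and 4980 with the 10 CPM filter, which tests fewer genes. The enzyme genes kept their directions there, and Elovl1 lost its call in the fit of all 10 libraries (adjusted p = 0.0518).

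With the replicate number as a block, 3127 genes were higher and 3233 lower with hymeglusin, 2088 and 2686 with age, and 5305 and 7501 between the cell sources. The block left 9 enzyme genes lower with hymeglusin and called 6 with age (Acly added, adjusted p = 0.0369). Same-numbered libraries did not deviate together (correlations from -0.0764 to 0.00736). Between the ages, same-numbered and differently numbered libraries gave the same value with opposite signs (-0.0764 and 0.0764). With so few libraries per group, these correlations cannot decide whether the numbers pair the samples.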
